A study of Homo sapiens with 124 samples.

Results

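The genes described here encode 10 regulators of blood cell transcription: RUNX1, ERG, TAL1, LMO2, SPI1, FLI1, CEBPA, MYB, GATA2 and IKZF1. They were chosen by name, and their positions are rounded hg19 intervals. The 100 kb bins that overlap a gene's interval are its gene bins, and the 10 bins on each side, within 1 Mb, are its flanks. The 10 genes have 22 gene bins, and with the flanks 222 bins, of 26426 usable bins in the whole table. All 222 were usable: no cell lacked a value, and some cell had reads.

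Contact of the genome with the nuclear lamina was mapped by DamID in single KBM7 cells, a near-haploid human line derived from a chronic myeloid leukaemia. All 124 samples carry the same label: haploid cells of clone 14 with Dam fused to LaminB1, given 0.5 nM of the inducer Shield1 over 15 h and sorted as the smallest 2% among cells with both Fucci cell cycle markers. Columns of 118 cells were analysed as 1 group, and because all are from 1 clone of 1 line, the frequencies describe that clone. The table gives, for each cell and bin, the ratio of observed to expected reads, and a bin was counted as in contact in a cell at a ratio of at least 1.

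The nuclear lamina is a protein meshwork under the nuclear envelope, and the parts of the genome that touch it, the lamina-associated domains, are mostly poor in genes and weakly transcribed. In DamID, the bacterial methyltransferase Dam marks adenines in GATC motifs close to the protein it is fused to, and the marked fragments are amplified and sequenced. RUNX1, ERG, FLI1, TAL1, LMO2 and GATA2 act in blood stem and progenitor cells, SPI1 and CEBPA direct myeloid differentiation, MYB keeps progenitors proliferating, and IKZF1 is best known for its role in lymphoid development. Expression of these genes was not measured here.

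The assay reads Dam only at GATC. RefSeq's promoter windows (GRCh38.p14), which run from 250 bases before to 50 bases after a transcription start, matched 7 of the 10 genes. They had 14 windows in all, since some genes have several starts. The motif searched was GATC, whose letters read the same on both strands. It occurred in 3 of the 14 windows, and in 41.7% of all 35116 promoter windows of RefSeq's table. The 3 windows that hold GATC are printed with the motif in capitals, to show the letters that the assay can read, beside the MYB window, which holds none.
TAL1, chr1:47232286-47232585, minus strand: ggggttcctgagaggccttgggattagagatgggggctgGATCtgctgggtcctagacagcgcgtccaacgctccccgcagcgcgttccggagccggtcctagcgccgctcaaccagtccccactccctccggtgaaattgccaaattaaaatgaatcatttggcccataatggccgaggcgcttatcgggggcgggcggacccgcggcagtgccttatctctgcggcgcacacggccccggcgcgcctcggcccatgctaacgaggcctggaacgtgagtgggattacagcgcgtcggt
ERG, chr21:38584896-38585195, minus strand: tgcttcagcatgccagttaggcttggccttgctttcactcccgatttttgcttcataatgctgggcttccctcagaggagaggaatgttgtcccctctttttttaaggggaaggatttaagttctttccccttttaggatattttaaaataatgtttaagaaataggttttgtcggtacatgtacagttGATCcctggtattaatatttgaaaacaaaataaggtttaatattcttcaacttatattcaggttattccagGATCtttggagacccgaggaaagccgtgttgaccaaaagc
IKZF1, chr7:50318798-50319097, plus strand: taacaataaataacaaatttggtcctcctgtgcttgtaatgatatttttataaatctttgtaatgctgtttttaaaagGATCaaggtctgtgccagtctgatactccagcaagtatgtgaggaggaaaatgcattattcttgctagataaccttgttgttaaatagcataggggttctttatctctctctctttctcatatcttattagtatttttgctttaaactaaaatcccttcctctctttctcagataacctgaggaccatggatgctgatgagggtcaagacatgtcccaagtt
MYB, chr6:135181058-135181357, plus strand: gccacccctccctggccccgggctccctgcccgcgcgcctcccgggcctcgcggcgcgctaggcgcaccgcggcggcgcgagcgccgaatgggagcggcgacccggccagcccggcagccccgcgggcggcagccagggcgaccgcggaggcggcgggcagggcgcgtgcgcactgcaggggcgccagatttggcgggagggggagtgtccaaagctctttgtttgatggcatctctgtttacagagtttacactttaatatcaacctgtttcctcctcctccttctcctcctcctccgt
The contact table is in another build, and its bins are far wider than these windows, so its values do not resolve the promoters themselves.

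The whole table sets the scale for the values that follow. Cells had between 28372 and 385661 recovered reads (median 135782), and each cell had 33.0% ± 5.47 of its usable bins in contact (SD, n = 118). A ratio of 1 stood for 5.63 reads in the median bin of the median cell, and for under 3 reads in 14 cells. The 28 cells numbered 96 to 124 had a higher background than the 90 cells numbered 1 to 94. Over bins in contact in 5% of cells or fewer, the median cell had a mean ratio of 0.164 in the set 96 to 124 and of 0.0309 in the set 1 to 94. The numbers mark no groups of the study, so values of both sets are given side by side without a test, and the part of the background in a result was not tested.

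All 10 genes were nearly free of lamina contact. All 22 gene bins were in contact in 5% of the 118 cells or fewer, a class that held 38.8% of all usable bins, and 18 of the 22 had no contact in any cell, against 22.3% of all usable bins. The mean frequency was 0.270% over the gene bins and 33.0% over all usable bins, and the medians were 0% and 17.8%. Of 2596 pairs of a gene bin and a cell, 7 were in contact. Where 0 of 118 cells were in contact, the true frequency may still be as high as 2.54% (the limit of 3 counts) or 3.08% (the exact 95% bound), counting error only.

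The 7 contacts lay in 4 genes and 6 cells. MYB, which drives proliferation of progenitors, had the bin with the highest frequency, chromosome 6 from 135500001 to 135600000, in contact in 4 of 118 cells (3.39%, exact 95% interval 0.931 to 8.45%). Its ratio had a lowest value of 0, a median of 0 and a highest value of 1.42, in cell 77. The 4 cells were 77, 103, 117 and 118, of which 1 belongs to cells 1 to 94. Besides cell 77, with 9 reads at its ratio of 1.42, cell 103 reached 1.04 with 5 reads, cell 117 reached 1.07 with 6 reads, and cell 118 reached 1.11 with 9 reads. By background, ranked from the highest over all cells, cell 77 ranked 5, cell 118 ranked 7, cell 117 ranked 17 and cell 103 ranked 25. The other MYB bin, from 135400001 to 135500000, touches the rounded interval by 1 base and had no contact, with a highest ratio of 0.770.

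ERG and FLI1, ETS family factors of stem cells and megakaryocytes, were each in contact in a single cell, and it was the same one, cell 116. The ERG bin on chromosome 21 from 39700001 to 39800000 had a ratio of 1.39 there, from 14 reads, and a median of 0. The FLI1 bin on chromosome 11 from 128600001 to 128700000 had a ratio of 1.12 there, and a median of 0. Cell 116 had the highest background of all cells, with a mean ratio of 0.330 over bins in contact in 5% of cells or fewer. IKZF1, the zinc finger factor Ikaros, was in contact in cell 121 alone, in the bin on chromosome 7 from 50400001 to 50500000, at a ratio of 1.18 from 10 reads. Cell 121 had the second highest background. Without cells 96 to 124, the gene bins of all 10 genes held 1 contact, the one of MYB in cell 77.

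The other 6 genes, RUNX1, TAL1, LMO2, SPI1, CEBPA and GATA2, had no contact in any gene bin. GATA2, a zinc finger factor needed by blood stem cells, had the gene bin with the fewest reads. Its bin on chromosome 3 from 128100001 to 128200000 held 14 reads over all 118 cells, in 8 of them, where a ratio of 1 in every cell would take 834 reads. Its highest ratio was 0.397 and its mean ratio 0.0139. The other GATA2 bin had 24 reads and a highest ratio of 0.512. RUNX1, which blood stem cells need to arise, spans 4 bins, whose highest ratios ranged from 0.319 to 0.860. The bins of SPI1, the myeloid factor PU.1, reached 0.346 and 0.435. The bin of CEBPA, a leucine zipper factor of granulocytes that the interval meets at 1 base, reached 0.608. TAL1, a basic helix-loop-helix factor, reached 0.734. LMO2, an adaptor that links TAL1 and GATA factors, reached 0.486 and 0.876 in its 2 bins. In none of these genes did a single cell pass the contact value.

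The gene bins were read about as deeply as the rest of the table. In the median cell a ratio of 1 stood for 4.61 to 7.91 reads in the 22 gene bins, against 5.63 in the median bin of the table, and every gene bin held reads in some cells, from 14 to 89 over all cells. Mean ratios ran from 0.0139 in GATA2 to 0.0974 in IKZF1. Their median was 0.0569 over the 22 gene bins and 0.0507 over all bins in contact in 5% of cells or fewer. The mean ratio was higher in cells 96 to 124 than in cells 1 to 94 in all 22 gene bins, with medians of 0.150 and 0.0221. Between the genes, the order by contact in gene bins was not resolved. MYB came first at a mean of 1.69% over its bins, followed by FLI1 and IKZF1 at 0.424% and ERG at 0.212%, and no neighbours in that order differed beyond the exact interval of the cells that tell them apart. For MYB and FLI1, 4 cells had a larger share in MYB and 1 in FLI1 (interval for MYB's share of these cells 28.4 to 99.5%).

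**Figure D1:**
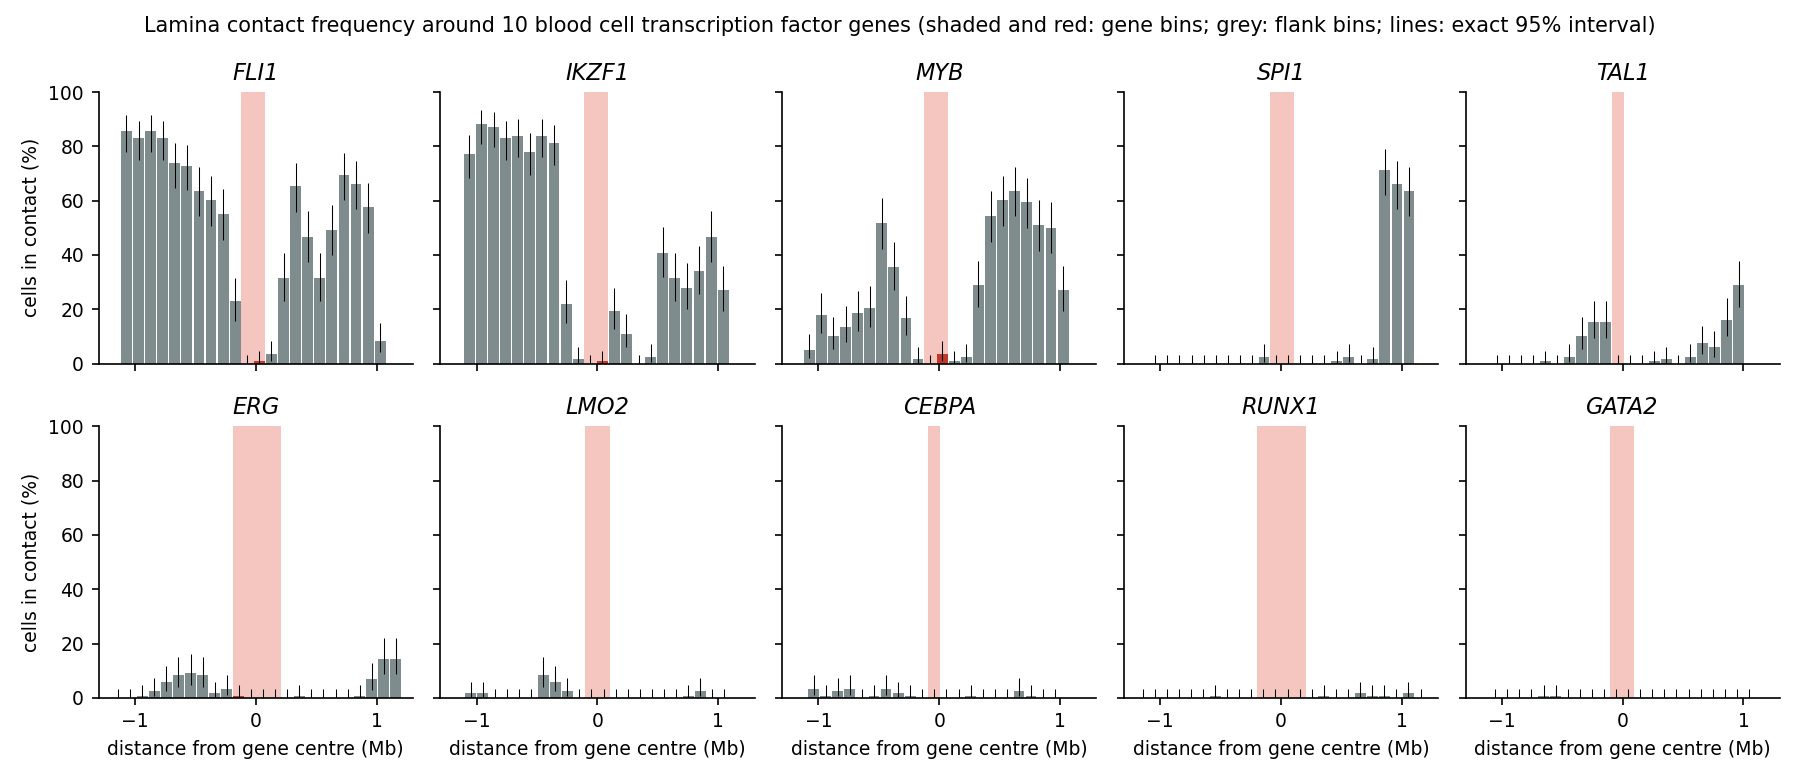
Percentage of 118 cells in contact (vertical axis) by distance from the gene's centre in Mb (horizontal axis) for each of the 10 genes, with gene bins red on a shaded band, flank bins grey and exact 95% intervals as lines. The shaded bands hold bars of at most 3.39%, while the flanks reach 88.1% around IKZF1 and stay at or below 0.847% around GATA2.

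The genes differed in what surrounded them. With flanks included, the median frequency over the 222 bins was 0.847%, 67.6% of the bins were at 5% or less, and 14.0% were at 50% or more, where 35.4% of all usable bins lay. The 10 bins at 80% or more, 4.50% of the 222 against 15.1% of all usable bins, were 6 beside IKZF1 and 4 beside FLI1. The plot of frequency by distance shows FLI1 as a narrow gap between stretches of frequent contact. IKZF1 is a gap with frequent contact on its lower side and less on its higher side, and MYB a gap between flanks of intermediate frequency. SPI1 has nearly all its contact at the far end of its higher flank, TAL1 and ERG have low shoulders, and LMO2, CEBPA, RUNX1 and GATA2 lie in flat surroundings.

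FLI1 lay in a gap between 2 contact domains. Its neighbours in RefSeq's table are ETS1, another ETS family gene, on the lower side and the potassium channel gene KCNJ1 on the higher side. Both gene bins together averaged 0.424%, against 68.6% in the lower flank and 42.9% in the higher flank. The lower flank was highest in the bin from 127500001 to 127600000, in contact in 101 of 118 cells (85.6%, exact 95% interval 77.9 to 91.4%), and the bin next to the gene stood at 22.9%. On the other side the adjacent bin stood at 3.39%, and the bin from 129300001 to 129400000 reached 69.5% (82 of 118 cells). The nearest bins at 50% or more were 0.1 Mb below and 0.2 Mb above the gene bins.

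The gap was present within single cells. Of 118 cells, 98 had a contact in both flanks of FLI1, and the gene was in contact in 1 of them. In 79 cells contacts lay within 0.5 Mb on both sides, again with the gene in contact in 1. In 50 cells more than 50% of each flank was in contact, and the gene was in contact in 1 of these 50. The contact-free stretch around the FLI1 gene had a median of 0.5 Mb over 117 cells, from 0.2 to 38.6 Mb. The flanks themselves varied together over cells (r = 0.69, n = 118, and 0.50 with the contact share of each cell regressed out), as a description, since both are read in the same library.

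IKZF1 stood beside a stretch of frequent contact on its lower side. Its lower side holds SPMIP7 and its higher side FIGNL1 and DDC in RefSeq's table. The gene bins averaged 0.424%, against 68.6% in the lower flank and 24.1% in the higher flank, and the lower flank had the larger share in 108 cells, the higher flank in 3. The lower flank reached 88.1% in the bin from 49400001 to 49500000 (104 of 118 cells, exact 95% interval 80.9 to 93.4%). Its edge was steep: the bin from 50000001 to 50100000 was in contact in 81.4% of cells and the next bin in 22.0%, with 70 cells in contact only in the outer bin and 0 only in the inner one. Above the gene, contact in 19.5% and 11.0% of cells was followed by a further gap, with 0 cells in the bin from 50700001 to 50800000 and 3 in the next, before the flank reached 46.6%. Contacts in both flanks were present in 79 cells, with IKZF1 in contact in 1, and in 57 cells they lay within 0.5 Mb on both sides. Over 117 cells the contact-free stretch around the gene had a median of 0.9 Mb.

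MYB lay in a gap between flanks of intermediate frequency. HBS1L precedes it and AHI1 follows it in RefSeq's table. Its gene bins averaged 1.69%, against 19.2% in the lower flank and 39.75% in the higher flank, and here the higher flank had the larger share in 78 cells and the lower flank in 13. The lower flank peaked at 51.7% in the bin from 135000001 to 135100000 (61 cells) and the higher flank at 63.6% from 136100001 to 136200000 (75 cells). Of the 63 cells with contact in both flanks, 2 had the gene in contact, so 2 of the 4 cells with a MYB contact did not have one on both sides. In 114 cells without contact in the gene's middle bin, the contact-free stretch had a median of 1 Mb. In cell 77, which had the strongest MYB contact, 86.4% of the MYB bins were in contact, the highest share of any cell.

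**Figure D2:**
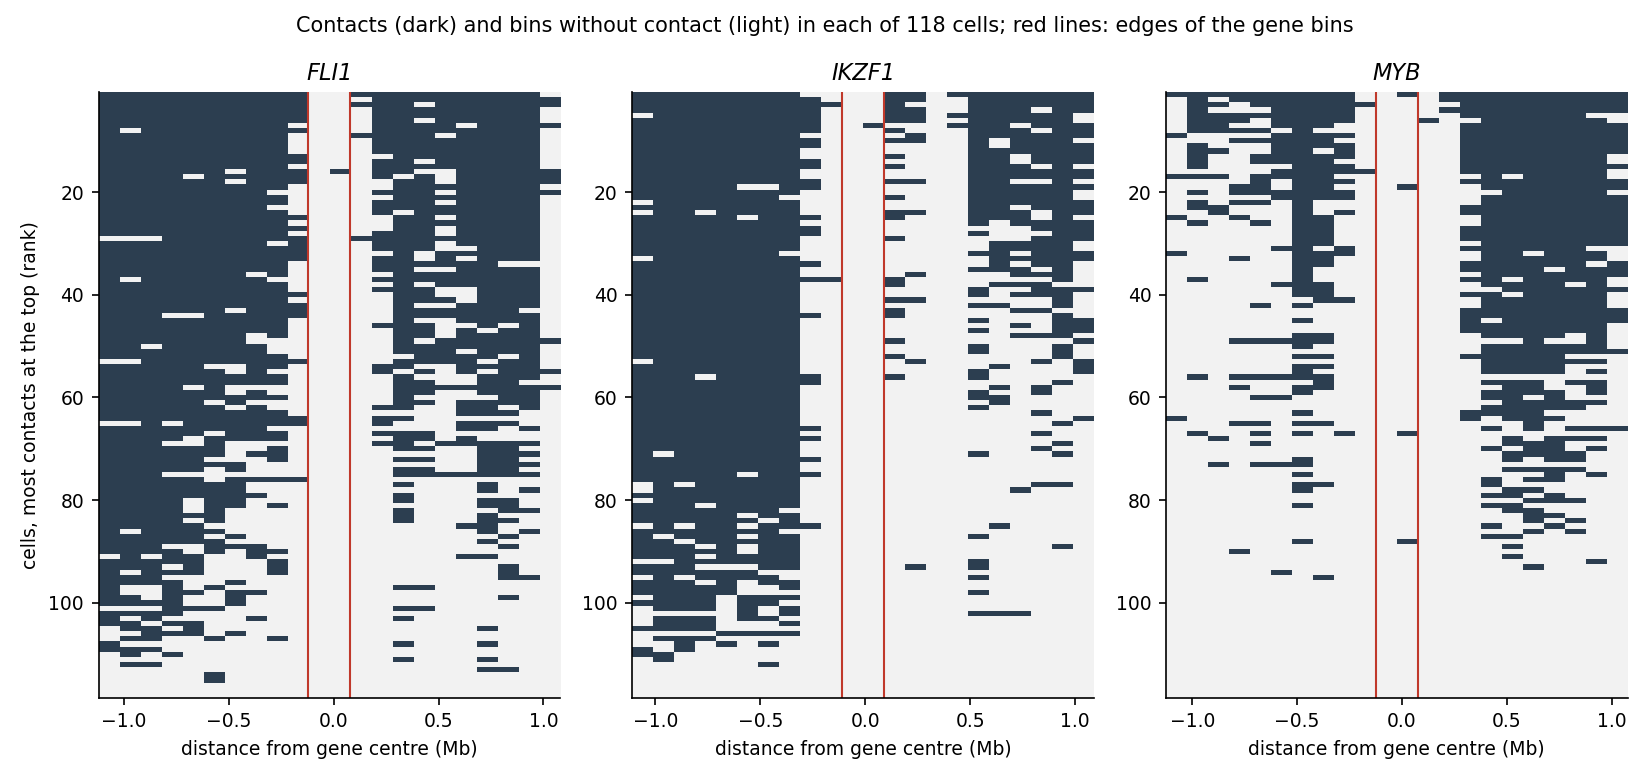
Contacts (dark) and bins without contact (light) by distance from the gene's centre in Mb (horizontal axis), for FLI1, IKZF1 and MYB. Each line down the plot is 1 of 118 cells, ranked from most to fewest contacts, and red lines bound the gene bins, which stay light in all but 1, 1 and 4 cells while the flanks are dark in most cells near the top.

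SPI1 and TAL1 had contact in fewer of their flank bins than FLI1, IKZF1 or MYB. SPI1, between MYBPC3 and SLC39A13, had 0% in its gene bins, 0.254% in the lower flank and 20.6% in the higher flank. Nearly all contacts of the higher flank lay in its last 3 bins. The step between the bin from 48200001 to 48300000 (71.2%, 84 cells) and the bin before it (1.69%, 2 cells) was 69.5 percentage points, with 82 cells in contact only in the outer bin and 0 only in the inner one. Steps of 50 points or more occurred in 1.02% of adjacent usable bins. Over the 222 bins of these genes and their flanks there was 1 at SPI1 and 1 at IKZF1, about as often as over the table. TAL1, between PDZK1IP1 and STIL, had 0% in its gene bin although the bin below it was in contact in 15.3% of cells (18 cells). In the median cell a ratio of 1 stood for 2.21 reads in that lower bin and for 6.32 in the gene bin. The next bins below stood at 3.56 and 1.46 reads. A contact there took fewer reads than in the gene bin, and the part of depth in this difference was not tested. The higher flank of TAL1 reached 28.8% in the last bin, from 48600001 to 48700000. No usable bin below TAL1 on chromosome 1 reached 50%.

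ERG and RUNX1 lie on chromosome 21. ERG had low shoulders, up to 9.32% in the lower flank (11 cells) and 14.4% in the higher flank (17 cells), and 93 cells had no contact in the whole 2.4 Mb. RUNX1 had at most 1.69% in any bin (2 cells), and 114 cells had no contact there. In 99 of 118 cells both genes lay in the same contact-free stretch. Over all 118 cells, the contact-free stretch around the middle bin of either gene had a median length of 14.35 Mb. LMO2, with a highest flank bin of 8.47% (10 cells), CEBPA, with 3.39% (4 cells), and GATA2, with 0.847% (1 cell), also had few contacts in their flanks. GATA2 had the fewest contacts of the 10: its higher flank had none in any cell, and the nearest bins at 50% or more were 7.3 Mb below and 15.8 Mb above. CEBPA lies on chromosome 19, where the mean frequency over 559 usable bins was 2.95%, 85.9% of bins were at 5% or less and none reached 50%.

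The stretch of consecutive bins at 5% or less that holds each gene was shortest for the genes in gaps. It was 0.3 Mb for FLI1 and for IKZF1, 0.5 Mb for MYB and 0.7 Mb for TAL1, then 1.3 Mb for ERG, 1.9 Mb for LMO2, 4.4 Mb for GATA2, 4.5 Mb for SPI1, 5.5 Mb for RUNX1 and 10.5 Mb for CEBPA. Over the table there were 1221 such stretches with a median length of 0.3 Mb, but long stretches hold more bins, and the median bin at 5% or less lay in a stretch of 2.6 Mb. By that measure FLI1, IKZF1, MYB, TAL1, ERG and LMO2 lay in shorter stretches and the other 4 genes in longer ones. Within single cells, the contact-free stretch was followed from the gene's middle bin, and it also ended at bins that were not usable. It had medians of 0.5 to 1 Mb for FLI1, IKZF1 and MYB, 4.6 Mb for LMO2, 4.9 Mb for SPI1, 5.9 Mb for GATA2, 18.6 Mb for TAL1 and 26.8 Mb for CEBPA. The median of that measure over all bins at 5% or less was 5.1 Mb.

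Each gene bin was then compared with its own flanks in the same cell, with limma over 26335 bins and Benjamini-Hochberg adjustment. Here the flanks of a bin were all other usable bins within 1 Mb of it, which includes further bins of the same gene. Of the 22 gene bins, 15 were lower than their flanks at an adjusted p of 0.05 or less, where 36.1% of all bins were lower, and 0 were higher, where 30.1% of all bins were higher. The 15 belong to 8 genes, all except RUNX1 and GATA2. With each set of cells fitted alone, 13 of the 22 were lower in cells 96 to 124, against 16 in cells 1 to 94. The first of these fits had 28 cells and called 25.4% of all bins lower. The second had 90 cells and called 34.0% lower. The part of cell number in the gene bin counts was not tested. The 7 bins not called were the 4 of RUNX1, both of GATA2 and the ERG bin with the contact in cell 116, which differed from flanks of 2.12% by -1.27 points (adjusted p = 0.162). The median difference was -2.86 points over the gene bins, -0.154 over all bins tested and -1.74 over bins at 5% or less. For a gene bin with no contact in any cell the difference equals its flank frequency with the sign turned, so these calls say how much contact the flanks had. Such a bin cannot be higher than its flanks, and 18 of the 22 were of this kind. The shares called among all bins, which can go either way, are therefore not a matched comparison.

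FLI1 was lower than its flanks in both bins. Of the 10 genes its bins had the largest differences from their flanks, -55.3 ± 2.37 and -50.6 ± 2.39 percentage points (SE, n = 118 cells, limma adjusted p = 3.71e-44 and 3.25e-40). IKZF1 differed by -45.0 ± 1.801 and -41.7 ± 1.89 points (limma adjusted p = 6.93e-47 and 9.14e-42). These 4 were the gene bins at least 30 points below their flanks, as were 6.04% of all bins tested. MYB differed by -28.3 ± 2.06 and -25.8 ± 2.59 points (limma adjusted p = 4.4e-25 and 1.63e-16). SPI1 differed by -7.25 ± 0.419 and -10.4 ± 0.518 points (limma adjusted p = 9.57e-33 and 2.79e-38). With flanks of 0.5 Mb, which end before the contact domain of the higher flank, the SPI1 bin taken as its middle differed by -0.339 points and was not called (limma adjusted p = 0.0935). TAL1 differed by -5.38 ± 0.708 points (limma adjusted p = 3.14e-11).

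The remaining differences were small in size. The 3 called ERG bins differed from their flanks by -2.50 to -3.90 points and the LMO2 bins by -1.19 and -1.10 points. CEBPA differed by -1.06 ± 0.433 points (limma adjusted p = 0.0251), a call that was lost in 6 of the alternatives tried, and the call of the middle ERG bin was lost in 4. On a log2 scale of the ratio in place of contacts, 1 RUNX1 bin, from 36400001 to 36500000, was higher than its flanks by 0.06 (limma adjusted p = 0.0347). That bin had no contact in any cell, a mean ratio of 0.0661 and a highest ratio of 0.860. On the scale of contacts 30.1% of all bins were called higher, and the share on the log2 scale is not given here.

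**Figure D3:**
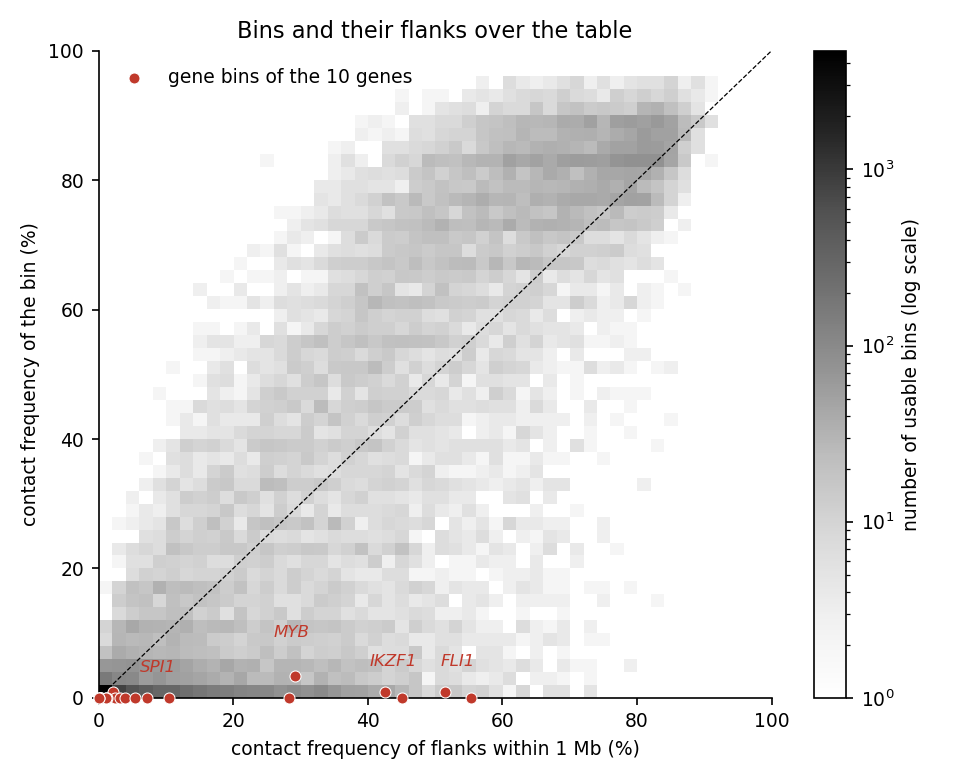
Contact frequency of a bin in percent of cells (vertical axis) against that of its flanks within 1 Mb (horizontal axis), with shading for the number of usable bins on a log scale, the dashed line of equality and the 22 gene bins as red points. All red points lie at 3.39% or below, and those of FLI1, IKZF1 and MYB lie at flank frequencies of 28.3 to 55.3%.

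Bins so low between flanks so high made up a small part of the table, as the plot of bins against their flanks shows. Among 10219 bins at 5% or less, 3.55% had a flank frequency of 40% or more, and the 4 gene bins of FLI1 and IKZF1 were of this kind. A flank frequency of 25% or more occurred in 11.5%, and with MYB 6 of the 22 gene bins had one. A flank frequency of 5% or less occurred in 61.5% of these bins and in 13 of the 22 gene bins. The genes were chosen by name with these values known, so the shares are a description.

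The share of a gene's bins, flanks included, that was in contact was then followed from cell to cell. FLI1 had a mean of 50.7% ± 23.8 (SD, n = 118), with a lowest value of 0%, a median of 54.5% and a highest value of 86.4%. IKZF1 had 42.2% ± 18.9, from 0% through a median of 45.5% to 77.3%. MYB had 26.9% ± 21.7, from 0% through a median of 25.0% to 86.4%. SPI1 followed with 9.48% ± 5.10, TAL1 with 5.13% ± 7.32, ERG with 3.28% ± 8.19, LMO2 with 1.08% ± 2.95, CEBPA with 1.01% ± 4.44, RUNX1 with 0.282% ± 1.61 and GATA2 with 0.0770% ± 0.589. Cells with no contact in the locus numbered 3 for FLI1, 6 for IKZF1, 23 for MYB, 16 for SPI1, 65 for TAL1, 107 for CEBPA and 116 for GATA2.

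With flanks of 1 Mb, most neighbours in this order differed when compared cell by cell. FLI1 had the larger share in 66 cells and IKZF1 in 40 (exact 95% interval for FLI1's share of these cells 52.3 to 71.5%). IKZF1 exceeded MYB in 78 cells, with 29 the other way, and MYB exceeded SPI1 in 85, with 23 the other way. The intervals for ERG and LMO2, for LMO2 and CEBPA and for RUNX1 and GATA2 included an even split, so these pairs are not told apart. The order depends on the flank length. With flanks of 2 Mb the mean was 57.1% for IKZF1 and 44.0% for FLI1, and with flanks of 0.5 Mb SPI1, at 0.494%, came below TAL1 at 4.16%, ERG at 2.36%, LMO2 at 1.41% and CEBPA at 0.693%. Within the ETS family, again with flanks of 1 Mb, FLI1 had the larger share in 114 cells and ERG in 2. FLI1 and SPI1 share chromosome 11, and FLI1 had the larger share in 111 cells, SPI1 in 5. In all 10 loci the mean share was higher in cells 96 to 124 than in cells 1 to 94: 58.3% ± 20.8 and 48.3% ± 24.3 for FLI1, 50.8% ± 21.4 and 39.5% ± 17.3 for IKZF1, and 34.4% ± 19.8 and 24.6% ± 21.8 for MYB (SD, n = 28 and 90). The contact share over all usable bins was also higher in cells 96 to 124, at 36.5% against 31.9%, and their median reads were 161506 against 133746. In most loci with little contact the sets were further apart in proportion, with means of 8.50% and 4.07% for TAL1, 6.70% and 2.22% for ERG, and 1.04% and 0.0463% for RUNX1. The RUNX1 means rest on 4 cells with any contact. SPI1, at 11.9% and 8.74%, was not further apart in proportion than MYB.

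**Figure D4:**
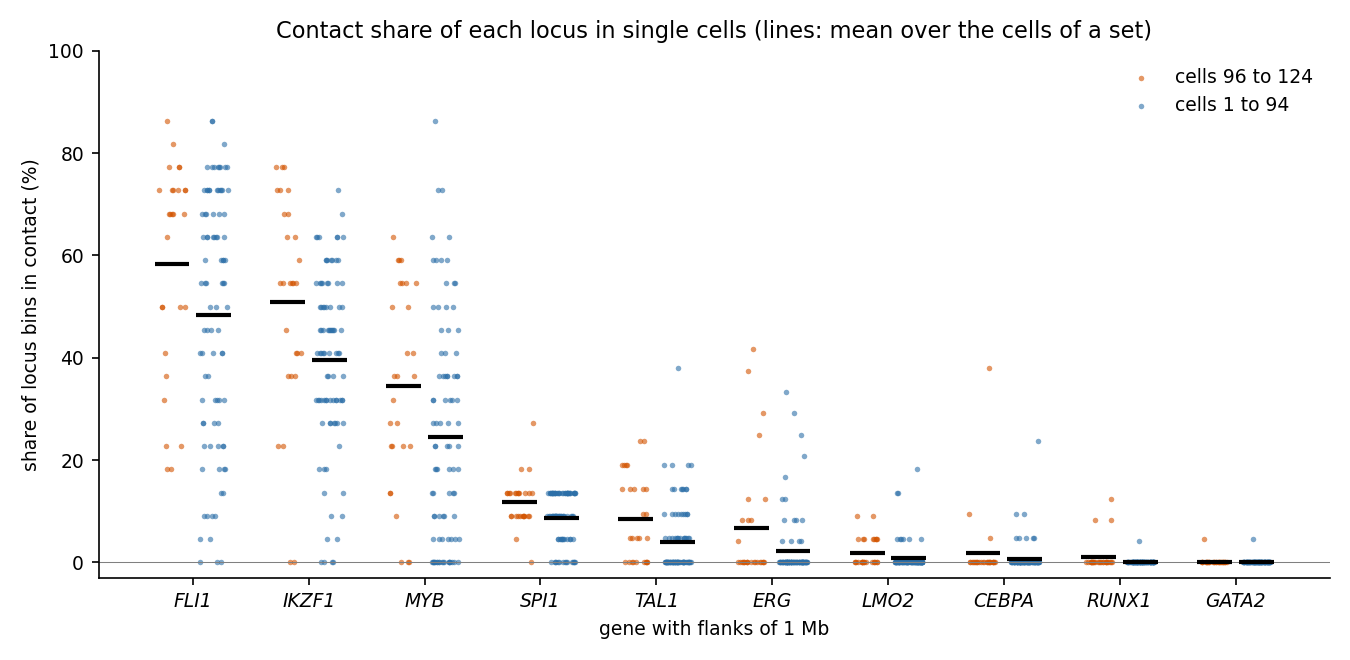
Share of each locus in contact, in percent of its bins (vertical axis), for each gene with 1 Mb flanks (horizontal axis). Each point is 1 cell, orange for cells 96 to 124 and blue for cells 1 to 94, and black lines are the mean of a set. FLI1, IKZF1 and MYB spread from 0% to 77.3% or more, and RUNX1 and GATA2 lie at 0% in 114 and 116 cells.

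Contact shares of the loci were also compared between genes. Gene bins had too few contacts for a correlation, so the locus shares were correlated over the 118 cells with the contact share of each cell regressed out, as a description of values that share library and depth. Over 45 pairs of genes r had a median of 0.06, from -0.29 to 0.63, and 8 pairs were above 0.2 in size. Most of these pairs include a locus with no contact in nearly all cells, so low values say little. FLI1 was closest to MYB (r = 0.23, and 0.47 before the contact share was removed) and MYB to FLI1, with r = 0.22 in cells 96 to 124 and r = 0.23 in cells 1 to 94. The loci with the most contact varied with the contact share of the cell itself, with r = 0.68 for FLI1, 0.48 for MYB, 0.43 for SPI1 and 0.38 for IKZF1. TAL1 and ERG were closest to each other (r = 0.25). IKZF1 was closest to CEBPA (r = 0.20), LMO2 to CEBPA (r = 0.13), and SPI1 (r = 0.27) and GATA2 (r = 0.33) to RUNX1. The highest value, 0.63 for RUNX1 and CEBPA, rested on cell 119, which had the highest share in both, 12.5% of the RUNX1 bins and 38.1% of the CEBPA bins. Without that cell, a choice made after the data were seen, r was 0.18, and in cells 1 to 94 it was -0.03. The value for SPI1 and RUNX1 was 0.05 without cell 119, and that for GATA2 and RUNX1 was 0.47 without it and -0.03 in cells 1 to 94. RUNX1 had contact in 4 cells and GATA2 in 2, so their correlations describe single cells.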

How the data were processed

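Single-cell DamID of LaminB1 was deposited as 1 table, whose values are, for each 100 kb bin and cell, an observed over expected ratio. The unit was read from the deposited table's name and values, and no source used here says how the expected part was made. Reads were processed with cutadapt and Bowtie2 2.1.0 on the build hg19, per the submitters' processing notes. Columns were present for 118 of 124 cells, and samples 33, 34, 44, 86, 95 and 120 were not analysed here. No profile of unfused Dam was used, so accessibility was not separated from contact.

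The members and lists were chosen with earlier results of these data known. All 10 members are named. Bins were usable with a number in all cells and a value above 0 in at least 1. Whole reads were recovered by dividing each ratio by a step of its bin and of its cell, and 100% of values above 0 came out whole within 0.02 reads. The bin steps were searched for under that same limit, so the 100% is not a separate check of the reads. The reads have no molecular identifiers, so intervals cover counting error only. Exact intervals are Clopper-Pearson at 95%. Locus correlations used the gene with its flanks. limma 3.58.1 (lmFit and eBayes on an intercept, R 4.3.3) tested the contact of a bin minus the contact share of its flanks in the same cell, over bins with at least 10 usable flank bins. It was also run on simulated contacts drawn independently for each bin at the mean of its chromosome in each cell. Real bins without any contact were not imitated, so that run cannot check the calls of such gene bins. The labels name no separate cultures, so p-values measure the spread between cells. Alternatives were contact values of 0.5 and 2, flanks of 0.5 and 2 Mb, cells thinned to 50000 reads, sets of cells, a log2 scale of the ratio + 0.5, and correlations with the contact share kept. Other blood transcription factor genes were not used here, as no table of the files' build was at hand.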

Additional observations from a re-analysis of the deposited data

How the results depend on the processing

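Of 223 values under alternatives, 192 stayed within the spread or on the same side of the threshold, 14 moved, 12 lost a call, 2 gained one and 3 turned direction. Many of the 192 could not change, since a gene bin without contact has none at a contact value of 2 or in fewer cells. For locus shares the spread was the SD between cells. CEBPA thus counted as unchanged from 1.01% to 4.84% with flanks of 2 Mb. The 192 are therefore no measure of robustness. The RUNX1 bin taken as its middle, not called in the settings used, turned to 0.459 points above its flanks after thinning (limma adjusted p = 0.677) and to 0.0279 above them on the log2 scale (limma adjusted p = 0.227). Bins in contact in 5% of cells or fewer numbered 18 to 22 of the 22 gene bins over the alternatives, 18 at a contact value of 0.5, and bins called lower than their flanks numbered 13 to 18. The share of all usable bins at 5% or less moved too, from 28.3% at a contact value of 0.5 to 50.0% at a contact value of 2. The share of all bins called lower ran from 25.4% in cells 96 to 124 to 43.3% with flanks of 2 Mb. The median over genes of the mean locus share, 4.20% in the settings used, was 10.0% at a contact value of 0.5, 9.87% with flanks of 2 Mb, 1.89% with flanks of 0.5 Mb, 1.08% at a contact value of 2, and 7.60% in cells 96 to 124, against 3.15% in cells 1 to 94. The correlation of RUNX1 and CEBPA turned to -0.0293 in cells 1 to 94 and was 0.177 without cell 119, a choice made after the data were seen. Lost calls were those of CEBPA in 6 settings, ERG in 4, LMO2 at a contact value of 2 and SPI1 with flanks of 0.5 Mb, and GATA2 gained a call with flanks of 2 Mb (-2.69 points, limma adjusted p = 9.18e-11) and after thinning (-0.505 points, limma adjusted p = 0.043). The cause was not tested, except that flanks of 0.5 Mb leave out the contact domain beside SPI1 by construction. Depth limits single contacts, since a ratio of 1 is under 3 reads in 14 cells and 9 cells had too few reads to be thinned.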
